A study of Mus musculus with 26 samples.

Results

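The 5 genes described here were close to absent from brown adipose tissue (BAT) at one housing temperature and clearly present at the other, and are 5 of the 50686 genes in the table of counts. Slco1a1 and Mfsd2a were present after cold (2 genes), and Rab17, Gm39038 and Gm8126 were present at thermoneutrality (3 genes). The genes were chosen by counts at the 2 temperatures in both genotypes, so their levels by temperature describe the choice and were not tested. A difference between genotypes did not choose them, but the choice favoured genes with the same pattern in both.

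RNA-sequencing had been carried out on BAT, labelled supraclavicular, of 26 male C57BL/6J mice aged 12 to 16 weeks. Fat-specific Afadin knockout (FAKO) mice carry an Adiponectin-Cre transgene, active in adipocytes of all fat depots, and floxed alleles of Mllt4, the gene for the scaffold protein Afadin (listed as Afdn), and were compared with control littermates labelled WT. All mice spent 2 weeks at thermoneutrality, given as 30 °C in the labels and as 29 °C in the study's methods. The 7 control and 7 FAKO mice at 30 °C stayed there, and 5 control and 7 FAKO mice were moved to 5 °C for 6 h. Total counts ranged from 12705969 to 25732258 per mouse and levels are given as CPM, counts scaled to the same library total with TMM factors.

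Brown fat was recognizable in every library. The summed level of 9 brown adipocyte markers was 7511 to 9514 CPM at 30 °C and 25578 to 32535 CPM at 5 °C, and Ucp1, the uncoupling protein of brown fat, was 985 ± 234 CPM in control mice at 30 °C (SD, n = 7) and 16005 ± 552 CPM at 5 °C (SD, n = 5). Afdn, the targeted gene, was 151 to 214 CPM in control mice and 154 to 231 CPM in FAKO mice at 30 °C, and 67.9 to 79.2 CPM against 53.3 to 65.3 CPM at 5 °C. The genotypes thus overlapped at 30 °C, while at 5 °C all 7 FAKO mice lay below all 5 control mice, and the groups are named here by their labels.

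Slco1a1 encodes an organic anion transporting polypeptide of the cell membrane, known mainly from liver and kidney, that takes up bile acids, steroid conjugates and thyroid hormones. Mfsd2a encodes a sodium-dependent symporter of the major facilitator superfamily that carries lysophosphatidylcholine, including the form esterified to docosahexaenoic acid (DHA), and is best known from the endothelium of the blood-brain barrier. Rab17 encodes a small GTPase known mainly from epithelial cells, where it takes part in traffic through recycling endosomes and in transcytosis. Gm39038 is annotated as an RNA without a known protein, and Gm8126 as a protein-coding gene in a cluster of near-identical copies whose function is not established. In cold, noradrenaline from sympathetic nerves acts on β-adrenergic receptors of brown adipocytes and raises cAMP, which changes the transcription of many genes.

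In mm10 with the GENCODE M21 annotation, Slco1a1 (ENSMUSG00000041698.11) lies at chr6:141907282-141946962, Mfsd2a (ENSMUSG00000028655.11) at chr4:122946850-122961188 and Rab17 (ENSMUSG00000026304.13) at chr1:90958133-90969661, all on the minus strand. Gm39038 (ENSMUSG00000108390.1, chr7:78560635-78575232, minus strand) has 2 exons of 355 bases in all and lies within Ntrk3 on the same strand without sharing any exon base with it. Gm8126 (ENSMUSG00000090634.1, chr14:43258649-43266799, plus strand) shares 110 exon bases with the pseudogene Gm49146.

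The 250 bases before the RefSeq start of each gene (GRCm38.p6) are shown because all 5 genes had a promoter entry and the members differed in whether the window held a cAMP response element, the motif TGACGTCA that CREB-type factors bind. Matches to this motif or to its core TGACG, searched on both strands, are in capitals, and the core is part of the full motif. Where a gene had several entries each is given. Sequences read 5′ to 3′ on the gene's strand.
Slco1a1, chr6:141946963-141947212, minus strand: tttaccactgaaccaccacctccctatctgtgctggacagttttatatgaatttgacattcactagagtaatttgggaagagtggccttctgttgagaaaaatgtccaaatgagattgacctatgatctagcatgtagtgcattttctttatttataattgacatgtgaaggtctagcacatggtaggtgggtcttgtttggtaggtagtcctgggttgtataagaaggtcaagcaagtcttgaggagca
Mfsd2a, chr4:122961189-122961438, minus strand: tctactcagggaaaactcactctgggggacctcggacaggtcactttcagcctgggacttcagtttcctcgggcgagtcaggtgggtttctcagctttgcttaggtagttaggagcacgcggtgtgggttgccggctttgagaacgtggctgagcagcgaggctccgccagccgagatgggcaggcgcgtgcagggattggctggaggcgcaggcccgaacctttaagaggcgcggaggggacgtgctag
Rab17, chr1:90967668-90967917, minus strand: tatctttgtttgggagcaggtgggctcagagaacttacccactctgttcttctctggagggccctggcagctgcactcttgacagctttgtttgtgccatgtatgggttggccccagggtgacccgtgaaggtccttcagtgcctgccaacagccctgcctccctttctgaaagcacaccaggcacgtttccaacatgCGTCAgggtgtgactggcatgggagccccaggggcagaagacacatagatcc
Gm39038, chr7:78574322-78574571, minus strand: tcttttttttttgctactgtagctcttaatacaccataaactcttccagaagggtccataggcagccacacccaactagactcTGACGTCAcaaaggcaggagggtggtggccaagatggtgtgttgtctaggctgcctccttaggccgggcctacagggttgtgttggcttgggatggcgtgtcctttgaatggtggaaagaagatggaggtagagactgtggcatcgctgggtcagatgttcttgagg
Gm8126, upstream entry, chr14:43209043-43209292, plus strand: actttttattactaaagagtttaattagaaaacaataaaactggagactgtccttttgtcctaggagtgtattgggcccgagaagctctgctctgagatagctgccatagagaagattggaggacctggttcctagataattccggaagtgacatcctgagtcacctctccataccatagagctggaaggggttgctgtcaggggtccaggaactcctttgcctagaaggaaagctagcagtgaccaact
Gm8126, entry at the GENCODE start, chr14:43258371-43258620, plus strand: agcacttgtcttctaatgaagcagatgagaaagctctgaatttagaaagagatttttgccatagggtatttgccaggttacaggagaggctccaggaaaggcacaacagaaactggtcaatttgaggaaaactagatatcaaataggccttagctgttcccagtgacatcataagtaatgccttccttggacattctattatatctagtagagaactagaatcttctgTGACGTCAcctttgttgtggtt

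The full motif stood 167 bases before the RefSeq start of Gm39038 and 22 bases before that of Gm8126, in the entry that ends 28 bases from the GENCODE start. It was in 1.55% of the 32851 mouse promoter windows of this length. Both genes with it were absent after cold. Rab17 had the core alone, on the minus strand of the window, 52 bases before the start, as did 17.8% of all windows with either form. Slco1a1 and Mfsd2a, the genes present after cold, held none of the motifs searched, which besides these were the ERR element TCAAGGTCA (in 0.387% of windows), the Nr4a element AAAGGTCA (1.34%) and the PPAR direct repeat (0.0335%). None of the 5 genes held any of the last 3. The share of G and C was 61.6% in the Mfsd2a window and 40.4% in that of Slco1a1, against a median of 52.4% over all windows. The RefSeq starts of Gm39038 and Rab17 lay 911 and 1994 bases inside their GENCODE genes, so their windows fall within the annotated gene bodies. The upstream entry of Gm8126 lay 49356 bases from its GENCODE start. A match describes letters and not a bound site, and the starts used by BAT were not measured.

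Slco1a1 was all but silent at 30 °C. Its 7 control mice had 0, 2, 0, 0, 1, 0 and 1 counts and its 7 FAKO mice had 1, 0, 2, 0, 2, 11 and 1 counts. After 6 h at 5 °C the 5 control mice had 42.9, 29.5, 70.8, 37.8 and 24.8 CPM. The 7 FAKO mice at 5 °C ranged from 24.5 to 71.4 CPM with a median of 43.6 CPM. The lowest mouse at 5 °C was thus 43.1-fold above the highest mouse at 30 °C. All mice at 5 °C lay above all mice at 30 °C in both genotypes, as the choice of the gene favoured. Mean levels were 0.0354 ± 0.0498 CPM (SD, n = 7) and 41.2 ± 18.0 CPM (SD, n = 5) for control mice, while FAKO mice averaged 0.126 ± 0.1998 CPM (SD, n = 7) and 44.4 ± 18.7 CPM (SD, n = 7). Between mice at 5 °C the level spanned 2.91-fold.

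The cold difference of Slco1a1, in pooled counts scaled by library, was 1286-fold in control mice (95% exact interval 502 to 4721) and 346-fold in FAKO mice (216 to 595). These intervals cover counting error only. The fitted log2 fold changes were 9.98 (SE 0.54) and 8.37 (SE 0.44). The lower figure in FAKO mice went with the single library of 11 counts, FAKO mouse 13. Without it the FAKO fold was 839 (385 to 2287), the fitted log2 value 9.50 (SE 0.48), and the difference of the 2 cold responses moved from -1.61 (SE 1.25) to -0.45 (SE 1.31) on the log2 scale. Of the 5371 windows of 100 bases, the read length, in Slco1a1 transcripts, 33 (0.614%) also occurred in Slco1a4 or Slco1a5. Over all mice Slco1a4 had 47 counts at 30 °C and 189 at 5 °C and Slco1a5 had 0 and 1, whereas Slco1a1 had 3954 in control and 4944 in FAKO mice at 5 °C.

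Mfsd2a was the most abundant of the 5 genes. At 30 °C the 7 control mice had between 1 and 12 counts, with a median of 5, and the 7 FAKO mice had 2, 0, 11, 4, 4, 68 and 11 counts. At 5 °C the 5 control mice had 171, 174, 137, 211 and 161 CPM. The 7 FAKO mice ranged from 60.1 to 258 CPM with a median of 139.7 CPM, and thus contained both the lowest and the highest mouse in the cold. The lowest mouse at 5 °C was 17.1-fold above the highest at 30 °C, again FAKO mouse 13 (3.51 CPM). Mean levels were 0.302 ± 0.195 CPM (SD, n = 7) and 171 ± 27.0 CPM (SD, n = 5) for control mice, while FAKO mice averaged 0.747 ± 1.24 CPM (SD, n = 7) and 150.2 ± 65.0 CPM (SD, n = 7).

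In pooled counts the cold difference of Mfsd2a was 557-fold in control mice (402 to 796) and 199.8-fold in FAKO mice (164 to 246), and 534-fold (378 to 781) without FAKO mouse 13. The fitted log2 fold changes were 9.10 (SE 0.57) and 7.63 (SE 0.50), the latter 8.99 (SE 0.41) without that mouse. The difference of the cold responses then went from -1.47 (SE 0.84) to -0.08 (SE 0.74). No window of 100 bases in Mfsd2a transcripts occurred in another gene. The endothelial markers, for the cell type in which Mfsd2a is best known, were summed as well. In control mice the sum was 581 to 800 CPM at 30 °C and 897 to 1053 CPM at 5 °C, without overlap. In FAKO mice it was 662 to 907 CPM and 775 to 1072 CPM, so the ranges overlapped. Their part in the level of Mfsd2a was not tested. In bulk tissue, more cells of a type and more RNA per cell cannot be told apart.

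Rab17 ran the other way. At 30 °C the 7 control mice ranged from 0.963 to 5.41 CPM with a median of 3.32 CPM, and the 7 FAKO mice from 1.55 to 4.43 CPM with a median of 2.99 CPM. At 5 °C the 5 control mice had 1, 1, 1, 0 and 0 counts and the 7 FAKO mice had 2, 3, 2, 4, 0, 2 and 0 counts. The groups at the 2 temperatures did not overlap, as the choice of the gene favoured. Rab17 had the narrowest gap of the 4 genes with any count at the absent temperature. Its lowest mouse at 30 °C, control mouse 7 with 21 counts, was 4.04-fold above the highest mouse at 5 °C. Pooled counts gave a 103-fold lower level after cold in control mice (34.8 to 499, from 3 counts at 5 °C) and 25.5-fold in FAKO mice (14.7 to 48.3, from 13 counts). The fitted log2 values were -6.47 (SE 0.59) and -4.60 (SE 0.44). They differed by 1.86 (SE 0.96). No window of its transcripts was shared with another gene. Although Rab17 is known from epithelia, all 12 epithelial markers, among them Epcam and Cdh1, stayed below 1 CPM in every library, and their sum was 0.418 to 1.47 CPM.

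At 30 °C, counts of Gm39038 ran from 29 to 65 in control mice (median 33) and from 37 to 76 in FAKO mice (median 50). At 5 °C it had 0 counts in all 5 control mice and in 6 of 7 FAKO mice, and 1 count in FAKO mouse 27. Its level at 30 °C was 2.29 ± 0.483 CPM in control mice (SD, n = 7), while FAKO mice averaged 2.82 ± 0.699 CPM (SD, n = 7). The 14 mice spanned 2.22-fold, the narrowest span of the 5 genes. With a floor of 3 counts over the group, it was at least 70.5-fold lower after cold in control mice. In FAKO mice the ratio was 314 (56.0 to 12437).

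Ntrk3, the neurotrophin receptor gene around Gm39038, also fell after cold but stayed well expressed. It had 346 ± 28.4 CPM (SD, n = 7) at 30 °C and 75.9 ± 18.3 CPM (SD, n = 5) at 5 °C in control mice, and the log2 fold changes were -2.19 (SE 0.14) in control and -2.16 (SE 0.12) in FAKO mice. Total RNA depleted of rRNA was sequenced, so that reads from unspliced Ntrk3 RNA over the exons of Gm39038 cannot be told apart from its own. Across the 14 mice at 30 °C, after subtracting group means, Gm39038 and Ntrk3 had a Pearson r of -0.05 (permutation p = 0.889) and a Spearman rho of -0.15 (permutation p = 0.620), and r was 0.04 without the 2 mice farthest from the median.

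Gm8126 had no count in any of the 12 mice at 5 °C. At 30 °C the 7 control mice ranged from 0.927 to 2.72 CPM (median 1.62) and the 7 FAKO mice from 1.63 to 5.22 CPM (median 2.12), the highest being FAKO mouse 9 with 103 counts. With the same floor its level after cold was at least 52.5-fold lower in control mice and at least 97.1-fold lower in FAKO mice. Its identity is less certain than that of the others, because 668 of its 1665 windows (40.1%) also occurred in 9 other genes. The 8 of these in the table of counts, led by Gm5799 with 578 shared windows, summed to 330 counts at 30 °C and 1 count at 5 °C over all mice. Of these 8 copies, 6 had any count at 30 °C and 1 at 5 °C, and how reads were divided between them is not given in the sources used here.

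**Figure D1:**
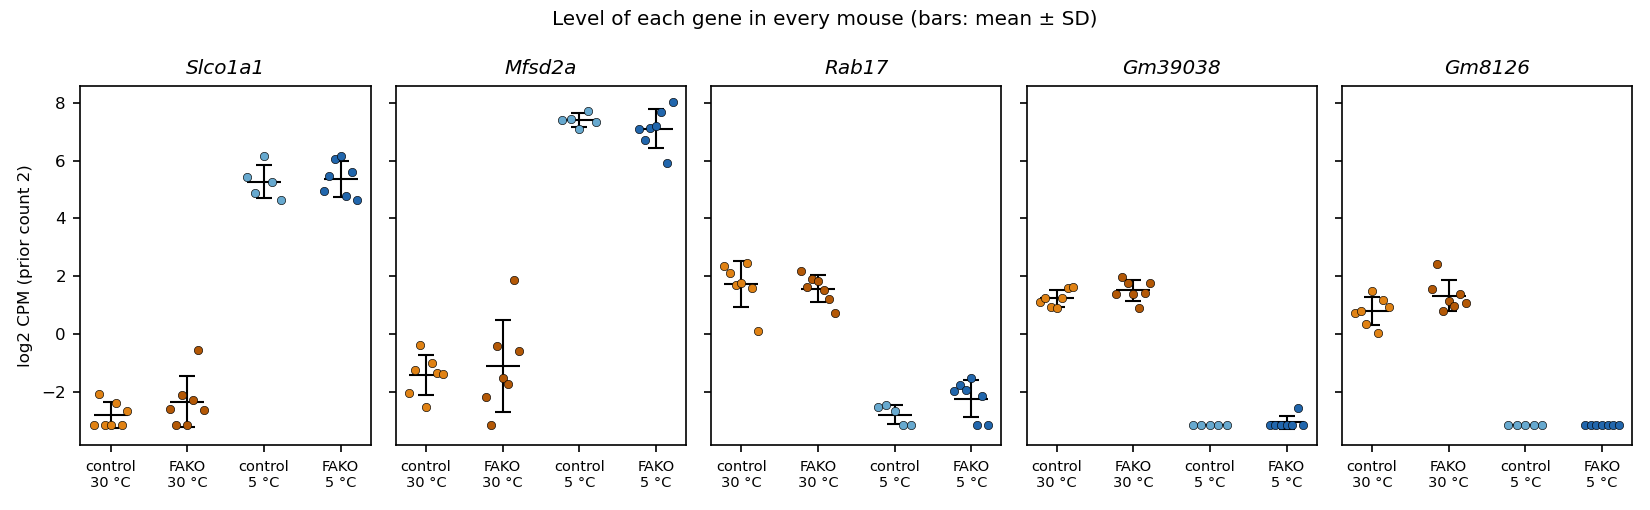
Level of each gene in log2 CPM with a prior count of 2 (vertical axis) in the 4 groups (horizontal axis), with 1 point per mouse and the mean ± SD. For all 5 genes the mice of 1 temperature lie wholly above those of the other, as their choice favoured. The share of all genes that do so is not given. The lone high point at 30 °C for Slco1a1 and Mfsd2a is FAKO mouse 13.

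Levels at the temperature of presence were compared between genes per kilobase of exon. This is less certain for Gm8126, with 40.1% of windows shared with other genes, and for Gm39038, whose reads cannot be told from unspliced Ntrk3. In control mice Mfsd2a had 75.8 ± 12.0 CPM per kb (SD, n = 5), Slco1a1 7.80 ± 3.42 (SD, n = 5), Gm39038 6.44 ± 1.36 (SD, n = 7), Rab17 1.79 ± 0.751 (SD, n = 7) and Gm8126 0.966 ± 0.341 (SD, n = 7). The ranges of mean ± SD overlapped between Slco1a1 and Gm39038 and between Rab17 and Gm8126. In FAKO mice the order was the same, with 66.8 ± 28.9, 8.42 ± 3.54, 7.93 ± 1.97, 1.51 ± 0.474 and 1.47 ± 0.697 CPM per kb (SD, n = 7 each).

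FAKO mouse 13 at 30 °C stood out in both cold-present genes. It had 0.568 CPM of Slco1a1, against 0 to 0.125 CPM in the other 13 mice at that temperature, and 3.51 CPM of Mfsd2a, against 0 to 0.665 CPM. Of 17 known cold-induced genes of brown fat, this mouse was the highest of 14 in 5, which included Dio2 (66.1 CPM, others at most 50.0), the deiodinase that activates thyroid hormone, Elovl3 (4.80, others at most 1.61), a fatty acid elongase, and Gk (88.0, others at most 56.7), glycerol kinase. In Ucp1 it was 7th of 14, at 917 CPM. It ranked 9th in Nr4a3, Gpr3 and Vegfa, 10th in Pdk4 and Nr4a1, 11th in Slc2a1 and 13th in Bmp8b. The genes present at 30 °C were not unusual in this mouse (Rab17 2.22 CPM, Gm39038 2.58 CPM, Gm8126 2.48 CPM). What these levels in 1 mouse have to do with each other was not tested.

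**Figure D2:**
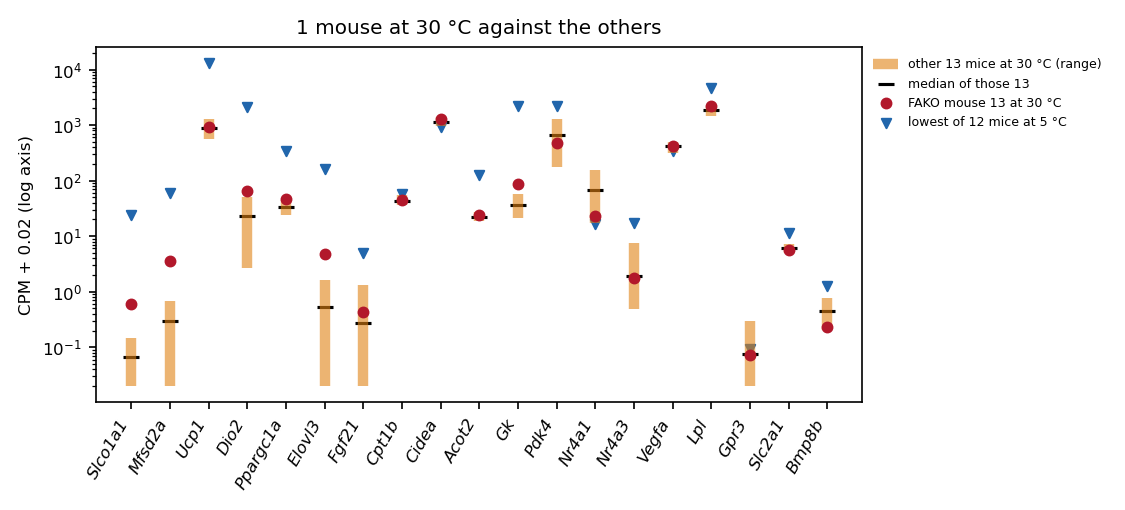
CPM plus 0.02 on a log axis for Slco1a1, Mfsd2a and 17 known cold-induced genes (horizontal axis), with FAKO mouse 13 at 30 °C in red, the range of the other 13 mice at 30 °C as bars with their median, and the lowest mouse at 5 °C as triangles. For Slco1a1 and Mfsd2a the red point sits above the bar and 43.1-fold and 17.1-fold below the lowest mouse at 5 °C.

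Which of the 5 genes differed between genotypes was asked at the temperature at which each was present. A genotype difference did not choose them, but each gene had to be present in both genotypes there. Of 17286 genes tested, 14 (0.0810%) passed an FDR of 0.05 between FAKO and control mice at 30 °C and 24 (0.139%) at 5 °C, and none of the 5 was among them. Before adjustment, 1322 and 2323 genes fell below 0.05. Gm8126 was one of them at 30 °C, with an unadjusted edgeR p of 0.0473.

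Slco1a1 at 5 °C had a log2 fold change of 0.11 (SE 0.28, 95% interval -0.44 to 0.65) in FAKO over control mice, with a Benjamini-Hochberg adjusted p of 0.916 from edgeR's quasi-likelihood test. Mfsd2a at 5 °C had -0.18 (SE 0.37, -0.90 to 0.54, adjusted p = 0.879 from edgeR), and 5 of 7 FAKO mice lay below the control mean in log2 CPM. Rab17 at 30 °C had -0.24 (SE 0.29, -0.81 to 0.33, adjusted p = 0.916 from edgeR). The intervals leave room for differences of either sign.

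Gm39038 at 30 °C was 0.29 higher in FAKO mice on the log2 scale (SE 0.19, -0.08 to 0.67, adjusted p = 0.765 from edgeR), with 6 of 7 FAKO mice above the control mean. Gm8126 at 30 °C was 0.60 higher (SE 0.28, 0.05 to 1.14, adjusted p = 0.643 from edgeR), with 7 of 7 FAKO mice above the control mean. Without FAKO mouse 9, the mouse with 103 counts, the fitted value of Gm8126 was 0.34 (SE 0.23). In exact two-sided permutation tests of each gene's log2 CPM, Gm8126 differed by 0.54 (p = 0.0647, adjusted 0.323 over the 5 tests) and Gm39038 by 0.27 (p = 0.139, adjusted 0.348). The same exact tests gave 0.10 for Slco1a1 (p = 0.760), -0.30 for Mfsd2a (p = 0.396) and -0.16 for Rab17 (p = 0.663). The value of Mfsd2a was -0.10 without FAKO mouse 27 and -0.45 without FAKO mouse 28, and that of Rab17 was -0.43 without control mouse 7 and -0.02 without FAKO mouse 14. At the other temperature the choice required both genotypes to be near absent, so the same edgeR test could not decide on a difference there. Its log2 values at 30 °C, given as a description, were 1.72 (SE 1.22) for Slco1a1 and 1.29 (SE 0.75) for Mfsd2a. For Rab17 at 5 °C the edgeR value was 1.62 (SE 0.91), and each of these values rests on few counts. Without FAKO mouse 13 the values at 30 °C were 0.56 (SE 1.34) for Slco1a1 and -0.09 (SE 0.65) for Mfsd2a.

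**Figure D3:**
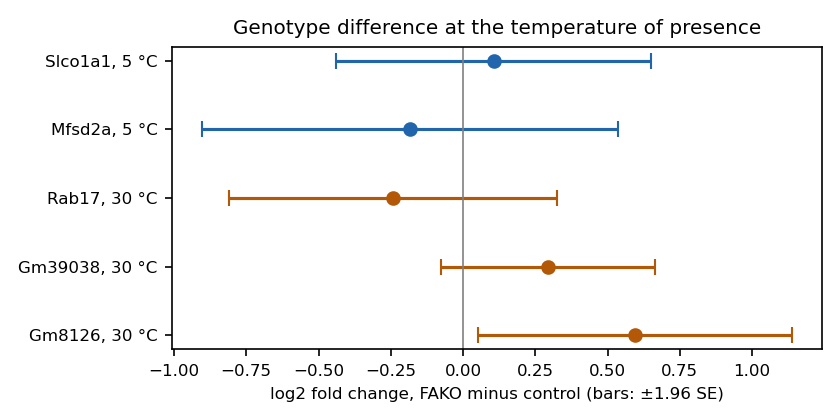
Fitted log2 fold change of FAKO over control mice (horizontal axis) for each gene at the temperature at which it was present, with bars for the 95% interval. The interval of Gm8126 lies just above 0 before adjustment, from 0.05 to 1.14, and the other 4 span 0.

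A strict form of the switch was then counted over the whole table: at most 3 counts in every library of one temperature and at least 10 in every library of the other. It was met by 7 genes present after cold and 8 present at 30 °C, out of 34761 genes with any count. Only Gm39038 and Gm8126 of the 5 were among them, because Slco1a1 had 11 counts in FAKO mouse 13, Mfsd2a had more than 3 counts in several mice at 30 °C and Rab17 had 4 counts in 1 mouse at 5 °C. In control mice alone the counts were 17 and 19 genes, and Slco1a1, Rab17, Gm39038 and Gm8126 qualified. Mfsd2a did not, with up to 12 counts in control mice at 30 °C. Without FAKO mouse 13, a choice made after seeing the data, 10 and 8 genes qualified, Slco1a1 included.

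The other genes present after cold were led by Acot5, a peroxisomal acyl-CoA thioesterase (0 to 3 counts at 30 °C, 116 to 304 at 5 °C), 2310039L15Rik (0 to 3, then 62 to 167), Tmem171 (0 to 2, then 38 to 103), Bean1 (0 to 3, then 20 to 72) and Gm6614 (0, then 17 to 60). Those present at 30 °C were led, after Gm39038 and Gm8126, by 4921513I08Rik (16 to 46 counts at 30 °C, 0 to 1 at 5 °C), Smim10l2a (14 to 47, then 0 to 3), Sez6 (13 to 36, then 0 to 3), Zfp872 (11 to 34, then 0 to 2) and Olig1 (11 to 29, then 0 to 2). All of these had lower means where present than Slco1a1 and Mfsd2a, whose means were 41.2 and 171 CPM in control mice, with Acot5 the highest at 13.3 CPM.

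Genes near the 5 were looked at next, against a background in which cold moved 65.0% of tested genes in control mice (31.6% higher, 33.4% lower) and 68.6% in FAKO mice (33.7% higher, 34.9% lower) at an FDR of 0.05. Within 250 kb lay 62 listed genes, of which 21 were tested, and 8 rose and 7 fell in both genotypes. Among all tested genes, 27.4% rose and 28.5% fell in both. Around Slco1a1, 3 of 3 tested genes rose. Slco1a4, the neighbouring transporter of the same family, rose by 2.33 (SE 0.57) in control and 2.18 (SE 0.48) in FAKO mice on the log2 scale and reached 0.730 ± 0.517 CPM (SD, n = 5) in control mice. Gm6614, a second gene of this cluster 24.9 kb away, had 0 counts in all 14 mice at 30 °C and 17 to 60 at 5 °C. Gm22036, a small RNA gene within an intron of Slco1a1, went from 0 to between 3 and 58 counts, and its reads cannot be told apart from those of unspliced Slco1a1.

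Around Mfsd2a, 2 of 8 tested genes rose and 4 fell. Bmp8b, a growth factor of the BMP family and itself one of the known cold-induced genes, rose by 2.38 (SE 0.29) and 2.39 (SE 0.27) at a distance of 144 kb. Mycl, a transcription factor gene of the MYC family 34.5 kb away, fell, with log2 values of -2.84 (SE 0.34) and -2.17 (SE 0.29), Hpcal4 fell, with log2 values of -2.85 (SE 0.20) and -3.35 (SE 0.18), and Nt5c1a fell, with log2 values of -1.90 (SE 0.30) and -2.03 (SE 0.28). Near Rab17, Mlph, which encodes melanophilin, a Rab27 effector, fell, with log2 values of -1.65 (SE 0.26) and -1.67 (SE 0.24) at a distance of 6.99 kb, and Lrrfip1 rose by 1.27 (SE 0.17) and 1.59 (SE 0.15). Gm9885, on the opposite strand to Gm39038 and 3.60 kb away, fell, with log2 values of -4.09 (SE 0.22) and -3.66 (SE 0.19), while Mrpl46, of the mitochondrial ribosome, rose by 1.35 (SE 0.10) and 1.28 (SE 0.09). Of the 18 genes listed near Gm8126 none had enough counts to be tested. All directions given for tested genes passed the same edgeR test, adjusted over all genes, in both genotypes.

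**Figure D4:**
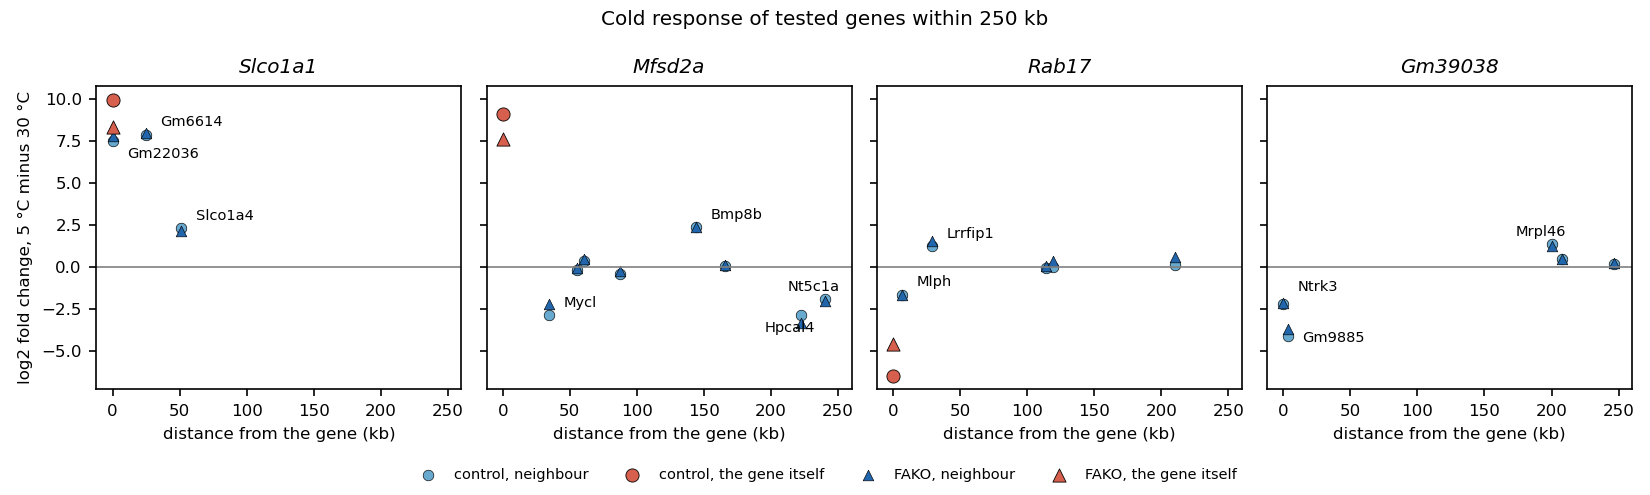
Log2 fold change of 5 °C over 30 °C (vertical axis) for tested genes by distance from each switched gene in kb (horizontal axis), in control (circles) and FAKO mice (triangles), with the switched gene itself in red (not drawn for Gm39038, whose fitted value rests on groups with 0 and 1 counts). All 3 neighbours of Slco1a1 lie above 0, where the values of Gm6614 and Gm22036 rest on groups at 0 counts, while those of Mfsd2a, Rab17 and Gm39038 lie on both sides.

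The families of Slco1a1, Mfsd2a and Rab17 held genes that rose and genes that fell. So did the whole set of tested genes, with 27.4% higher and 28.5% lower in both genotypes. Of 6 other tested SLCO transporters, 2 rose in both genotypes and 1 fell, with a median log2 fold change of 0.44 in control and 0.81 in FAKO mice, against -0.01 and -0.03 over all tested genes. Slco1a7 was not found under that name, and Gm6614 of the Slco1a1 cluster, which rose, was not in the list. Slco2a1, a prostaglandin transporter, rose by 1.10 (SE 0.36) and 2.77 (SE 0.34), and Slco2b1 fell, with log2 values of -0.67 (SE 0.13) and -0.47 (SE 0.12). Of 10 tested carriers of bile acids, thyroid hormones and related substrates, 4 rose and 3 fell. The amino acid transporters Slc7a8 and Slc7a5, which also carry thyroid hormones, rose by 3.59 (SE 0.34) and 3.71 (SE 0.33) and by 3.17 (SE 0.28) and 3.33 (SE 0.26), and Slc51b, a subunit of the basolateral bile acid exporter, changed by -2.504 (SE 0.34) and -3.59 (SE 0.33).

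Of 18 other tested genes of the MFSD list, 3 rose and 7 fell (median -0.23 in both genotypes), with Mfsd9 at -3.10 (SE 0.23) and -2.66 (SE 0.20), Mfsd12, a lysosomal cysteine transporter, at -2.45 (SE 0.18) and -2.13 (SE 0.16), and Mfsd3 at -2.07 (SE 0.18) and -1.51 (SE 0.16). Of 31 genes that make, remodel or carry lysophospholipids and DHA, 12 rose and 9 fell (median 0.19 and 0.18). Lipg, the endothelial lipase that releases lysophosphatidylcholine from lipoproteins, rose by 3.16 (SE 0.17) and 3.09 (SE 0.16), in control mice from 4.87 ± 1.23 CPM at 30 °C (SD, n = 7) to 43.7 ± 4.76 CPM at 5 °C (SD, n = 5). Fabp3, a fatty acid carrier, rose by 1.41 (SE 0.17) and 1.37 (SE 0.16), and Acsl4, an acyl-CoA synthetase for long polyunsaturated fatty acids, by 1.21 (SE 0.15) and 1.44 (SE 0.14), while Mboat2, a lysophospholipid acyltransferase, fell, with log2 values of -1.39 (SE 0.19) and -1.54 (SE 0.17).

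Of 27 other Rab GTPases of endosomes and polarised transport, 13 rose and 5 fell in both genotypes (median 0.21 and 0.31), with Rab15 at 1.87 (SE 0.32) and 1.43 (SE 0.30), Rab20 at 1.79 (SE 0.24) and 2.10 (SE 0.23) and Rab3d at -2.17 (SE 0.10) and -1.68 (SE 0.09). Of 23 genes for Rab17 regulators and the recycling endosome, 6 rose and 12 fell (median -0.42 and -0.33). Rab11fip4 fell, with log2 values of -3.62 (SE 0.24) and -2.68 (SE 0.20), and Myo5b, the motor of recycling endosomes, by 2.05 (SE 0.12) and 1.77 (SE 0.10). Pigr, the polymeric immunoglobulin receptor carried by transcytosis in epithelia, was itself near absent at 30 °C, with 0 to 2 counts, and had 14 to 49 counts at 5 °C, the opposite switch to that of Rab17. Of the 17 known cold-induced genes of brown fat, 14 rose and 0 fell in both genotypes, among them Elovl3, by 8.35 (SE 0.55) and 8.02 (SE 0.52), and Dio2, by 7.00 (SE 0.56) and 6.63 (SE 0.54). The calls are those of the same edgeR tests over all genes, and the lists were not tested as sets.

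**Figure D5:**
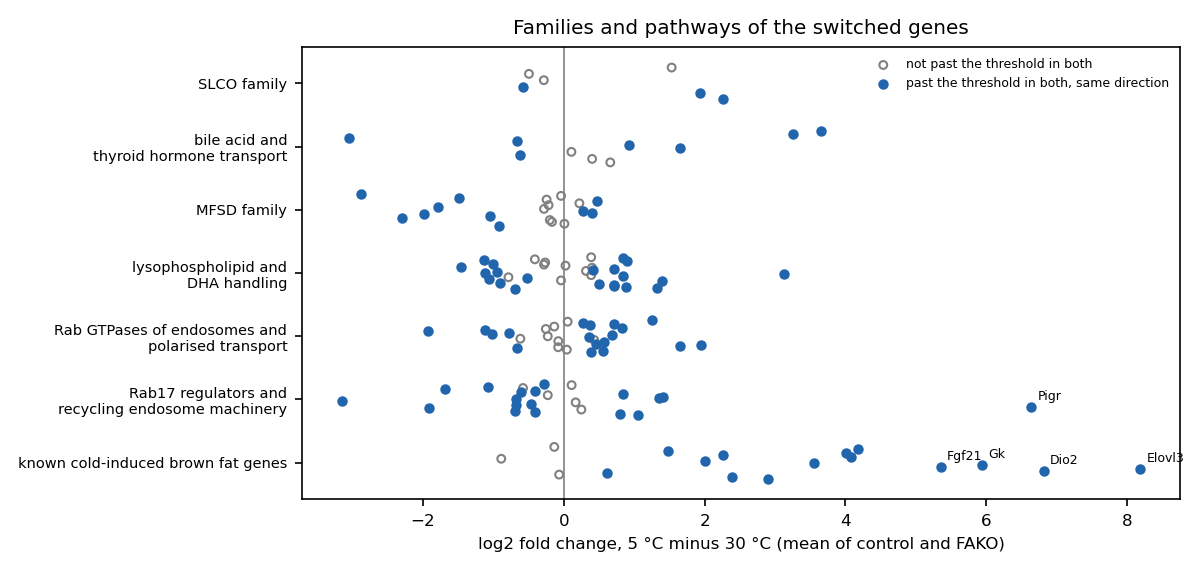
Mean of the control and FAKO log2 fold changes of 5 °C over 30 °C (horizontal axis) for each tested gene of 7 lists (vertical axis), with the 5 switched genes left out. Filled points passed the threshold in both genotypes in 1 direction, and only the list of known cold-induced genes had 0 such points below 0.

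The genes whose log2 CPM followed each gene most closely over all 26 libraries were Sav1 and Acot5 for Slco1a1 (r = 0.99 each), Slc4a4 and Sgpl1 for Mfsd2a (0.99 each), Ivns1abp and Add1 for Rab17 (0.98 each), Rasl12 and Thra, the thyroid hormone receptor alpha, for Gm39038 (0.99 each) and Per3, a clock gene, for Gm8126 (0.98). Their Spearman rho was 0.84 to 0.91. These values mostly restate the difference between temperatures, which all of these genes share. After subtracting group means at the temperature of presence, the closest were B230303O12Rik for Slco1a1 (r = 0.96, rho = 0.97, 12 mice) and F3, tissue factor (r = 0.95, rho = 0.97), Lurap1 for Mfsd2a (r = 0.97, rho = 0.80, 12 mice) and Flcn, folliculin (r = 0.96, rho = 0.92), Klc1 for Gm39038 (r = 0.89, rho = 0.86, 14 mice) and Sumf1 for Gm8126 (r = 0.86, rho = 0.75, 14 mice). They are the highest of all genes compared for these 4 genes and carry no test.

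No relation between the levels of individual mice passed adjustment. Slco1a1 and Mfsd2a in the 12 mice at 5 °C had a Pearson r of -0.45 (permutation p = 0.178, adjusted 0.484) and a Spearman rho of -0.41 (permutation p = 0.218), with r = -0.37 without the 2 farthest mice. It was 1 of 10 relations computed, each gene against Ucp1 included. Mfsd2a and Ucp1 at 5 °C had r = 0.77 (permutation p = 0.0385, adjusted 0.385) but rho = 0.32 (permutation p = 0.367), and r was -0.10 without the 2 farthest mice, on which the relation therefore rests.

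Marker lists of other tissues were summed in each library, since Slco1a1 is best known from liver and kidney. Of 12 hepatocyte markers, 10 stayed below 1 CPM in every library, among them Alb and Ttr, and 2 of these 10, Fgb and Cyp3a11, were at 0 throughout. The others, Serpina1a and Cyp2e1, exceeded 1 CPM in at least 1 library. The summed level of all 12 was 36.1 to 265 CPM at 30 °C and 73.2 to 349 CPM at 5 °C. Of 8 markers of the kidney proximal tubule, 3 were at 0 in every library, and the sum was 1.09 to 3.805 CPM. Lymphocyte markers summed to 1.12 to 20.9 CPM, macrophage markers to 130.4 to 229 CPM, and neural and Schwann cell markers to 44.9 to 62.3 CPM at 30 °C and 24.1 to 42.1 CPM at 5 °C. Skeletal muscle markers varied most, from 1.24 to 7416 CPM, at both temperatures, and their part in the levels of the 5 genes was not tested.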

How the data were processed

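The counts of BAT libraries from 26 mice in 4 groups were used, with the groups taken from the labels. The authors aligned 100-base single-end reads from stranded, rRNA-depleted libraries to mm10 with STAR 2.5.2b, counted them per gene with featureCounts 1.5.2 on GENCODE M13 and deposited raw counts without normalization. The strand setting and the treatment of multi-mapping reads are not given in the sources used here. All sample columns were used (0 left out). The 73 pairs of mice within groups differed by more than sampling noise (lowest chi-square per gene 5.17). The members and the lists were chosen with earlier results of these data known.

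Of 50686 listed genes, 50376 had a symbol in GENCODE M21 and 17286 were kept by filterByExpr and tested by legacy-mode quasi-likelihood F-tests (edgeR 4.0.16, R 4.3.3, limma 3.58.1), with 1 term per group, TMM factors and Benjamini-Hochberg adjustment at 0.05. Log2 CPM had a prior count of 2. Levels of single genes between genotypes were compared by exact two-sided permutation tests (SciPy 1.17.1), relations between mice with 100000 permutations. The steps were tested on simulated data. Promoters came from RefSeq (GRCm38.p6), with 5 of 5 genes matched, and shared windows from GENCODE M21 transcripts.

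Besides the members, Afdn and Ucp1, the genes named were the closest by correlation (up to 3 per measure, at a mean of at least 1 CPM), up to 4 neighbours per member within 250 kb, up to 4 per list by mean change past the threshold, and the 5 highest other switched genes per direction. Slco1a5 and Gm5799 were named for windows shared with a member. Neighbours with too few counts to be tested, and list genes in which FAKO mouse 13 ranked low, were named after the data had been seen. The closest genes to Rab17 within a temperature are not reported here. Alternatives were DESeq2 1.42.0, DESeq2 size factors, library size alone, no filter, the revised quasi-likelihood mode, a fit to 2 groups, prior count 0.5, other count limits and leaving out each mouse. Counting intervals cover counting error only.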

Additional observations from a re-analysis of the deposited data

Results flagged for a closer look

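Examined were 14 groups of mice (5 genes in 4 groups, 6 groups with at most 3 counts left out). In 3 of them 1 mouse lay far from the rest by Dixon's ratio of its gap to the group's range. Chance gives about 1 in 20 for normally distributed values, a rate that need not hold for low counts. FAKO mouse 13 at 30 °C had 0.568 CPM of Slco1a1 (11 counts) against 0.116 CPM in the next mouse, a ratio of 0.795. The same mouse had 3.51 CPM of Mfsd2a (68 counts) against 0.640 CPM, a ratio of 0.818. FAKO mouse 9 at 30 °C had 5.22 CPM of Gm8126 (103 counts) against 2.83 CPM, a ratio of 0.667. The first 2 ratios come from the same library and are not independent.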

How the results depend on the processing

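At 30 °C the 14 genes past the threshold between genotypes became 34 with library size alone, 48 with DESeq2 and 9 without the filter, and 7 to 93 when 1 mouse was left out, the highest without control mouse 7. At 5 °C the 24 became 5, 197 and 15 under the same settings, 9 in a fit to 2 groups, and 7 to 100 with 1 mouse left out, the highest without FAKO mouse 22. The cause was not tested. At the temperature at which each was present, none of the 5 genes passed adjustment across genes in any of these fits. The cold counts of 11233 and 11860 stayed between 10408 and 11855 and between 10872 and 13091 under the other settings. For Slco1a1 at 5 °C the log2 fold change was -0.051 to 0.40 with 1 mouse left out, and -0.03, -0.01 and -0.051 without control mouse 21, FAKO mouse 24 and FAKO mouse 25. Its mean log2 CPM difference was -0.060 to 0.32, and -0.060, -0.02 and -0.03 without those mice. The exact test of Gm8126 gave 0.69 (permutation p = 0.0373) with library size alone, a scaling that shifts the median gene from -0.02 to 0.13, and 0.36 to 0.66 (permutation p = 0.0198 to 0.129) with 1 mouse left out, below 0.05 without control mouse 4, control mouse 6 or FAKO mouse 10. That of Gm39038 gave 0.20 to 0.38 (permutation p = 0.0361 to 0.265), below 0.05 without FAKO mouse 12. With 1 mouse left out the exact test gave -0.45 to -0.10 for Mfsd2a (permutation p = 0.139 to 0.680) and -0.43 to -0.02 for Rab17 (permutation p = 0.0956 to 0.942), and Rab17 was -0.01 with library size alone. These p-values are not adjusted over the 5 genes. The difference of the cold responses ran from -2.23 to -0.45 for Slco1a1 and from -1.80 to -0.08 for Mfsd2a. The switch counts of 7 and 8 genes became 1 and 3 with at most 1 count, 4 and 1 with at least 20 counts, 17 and 19 in control mice, 14 and 15 in FAKO mice, 7 and 6 by CPM, and 10 and 8 without FAKO mouse 13. Of 15 closest genes per measure, 0 and 6 stayed with Spearman's rho. Within 100 kb, 5 neighbours rose and 5 fell. No paired analysis was possible because the groups share no mouse number. The few counts at the absent temperature limit the precision of every cold fold.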
